A study of Mus musculus with 16 samples.

Results

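The G2/M and mitosis genes described here are 54 mouse genes, chosen by name, that act between the end of DNA replication and the separation of the daughter cells. Of the 54, 53 were measured, among 10610 genes tested in all. Ccnb1, which encodes cyclin B1, was not analysed here. Each gene stood as its brightest probe set (on the mean over the arrays) among those with a log2 intensity of at least 4, an intensity of 16, on at least 2 arrays. All 53 lay well above that filter on every array, since the lowest level of any of them was 6.67 (Iqgap3) and the highest 14.56 (Spc25), so that none passed through 1 group alone. By role they comprised 6 measured genes of cyclins, CDK1 and its activators, 9 of the mitotic kinases and the chromosomal passenger complex, 8 of the spindle checkpoint, the anaphase-promoting complex (APC/C) and separase, and 6 of the centromere and kinetochore. A further 8 belonged to condensin and chromosome structure, 8 were kinesins and spindle proteins, and 8 served the central spindle and cytokinesis. They were spread over 16 chromosomes, with at most 9 on 1 of them (chromosome 2).

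The cells were R7T1, a mouse pancreatic beta-cell line known to have been immortalised through a regulated SV40 T antigen, and whether that antigen was on or off here was not given in the sources used. There were 4 treatments, namely BayK8644(2a) together with Exendin-4 (the combination), BayK8644(2a) alone, Exendin-4 alone, and the vehicle DMSO, each sampled after 0.5, 2, 6 and 24 h. BayK8644 opens L-type calcium channels and Exendin-4 is an agonist of the receptor for the incretin GLP-1. The labels do not explain the 2a (the compound is called BayK8644 below) and give no dose and no statement that arrays came from separate cultures. With 16 arrays, 1 for each treatment at each time, no treatment and time was replicated. In tests between times the 4 treatments stood in for replicates, and an SD at 1 time is a spread over the 4 treatments. The p-values measure the spread between arrays that the model leaves over, which may be technical or come from effects outside the model. The series is titled as a study of small molecules that expand beta cells.

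Entry into mitosis is driven by CDK1 bound to cyclin A or cyclin B, which CDC25 phosphatases activate. Aurora and Polo-like kinases then build the spindle, the spindle checkpoint holds the APC/C in check until every kinetochore is attached, and the APC/C with CDC20 releases separase and ends mitosis. Transcripts of many of these proteins accumulate late in the cell cycle under B-MYB and FOXM1 bound to the MuvB proteins, and are held down in resting cells when the same MuvB proteins join p130 and E2F4 in the DREAM complex. Promoters of this class are known for CCAAT boxes, bound by NF-Y, and for the cell cycle homology region, TTTGAA or less often TTTAAA.

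The upstream sequences of 6 of the genes are shown. They were taken in order of p-value from genes whose window held any motif searched for. They therefore do not show how often the genes carry those motifs. Cdc20, Prc1 and Kif22 had the smallest p-values with BayK8644. Birc5, Ckap2l and Top2a had the smallest between 24 and 0.5 h apart from Kif22, which was already chosen. Each line gives the 250 bases before the annotated start in RefSeq, build GRCm38.p6, read 5′ to 3′ on the strand of the gene. Capitals mark the CCAAT box and both forms of the cell cycle homology region (TTTGAA and its variant TTTAAA) on either strand, so that ATTGG stands for a CCAAT box on the opposite strand, as TTCAAA does for the homology region.
Cdc20 (chr4:118437344-118437593, minus strand): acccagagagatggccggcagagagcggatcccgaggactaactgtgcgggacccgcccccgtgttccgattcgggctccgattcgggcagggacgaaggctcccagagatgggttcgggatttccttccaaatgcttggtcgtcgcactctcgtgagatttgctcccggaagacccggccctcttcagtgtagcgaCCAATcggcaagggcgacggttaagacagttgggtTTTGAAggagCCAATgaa
Prc1 (chr7:80294226-80294475, plus strand): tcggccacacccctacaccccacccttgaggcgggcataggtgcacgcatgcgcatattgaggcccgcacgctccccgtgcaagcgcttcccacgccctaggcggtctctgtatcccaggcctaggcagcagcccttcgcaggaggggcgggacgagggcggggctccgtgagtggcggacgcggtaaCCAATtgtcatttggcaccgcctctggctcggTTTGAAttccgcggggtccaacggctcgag
Kif22 (chr7:127042421-127042670, minus strand): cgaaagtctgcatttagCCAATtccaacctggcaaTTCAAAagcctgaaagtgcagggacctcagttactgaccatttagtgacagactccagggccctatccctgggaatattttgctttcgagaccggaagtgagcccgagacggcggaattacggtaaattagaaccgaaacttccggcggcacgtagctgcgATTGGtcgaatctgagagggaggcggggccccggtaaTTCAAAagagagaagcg
Birc5 (chr11:117848987-117849236, plus strand): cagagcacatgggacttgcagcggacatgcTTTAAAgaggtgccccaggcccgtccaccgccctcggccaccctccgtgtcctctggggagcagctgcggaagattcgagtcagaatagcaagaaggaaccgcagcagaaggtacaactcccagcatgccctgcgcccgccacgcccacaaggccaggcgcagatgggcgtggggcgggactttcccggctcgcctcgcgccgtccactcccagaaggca
Ckap2l (chr2:129297213-129297462, minus strand): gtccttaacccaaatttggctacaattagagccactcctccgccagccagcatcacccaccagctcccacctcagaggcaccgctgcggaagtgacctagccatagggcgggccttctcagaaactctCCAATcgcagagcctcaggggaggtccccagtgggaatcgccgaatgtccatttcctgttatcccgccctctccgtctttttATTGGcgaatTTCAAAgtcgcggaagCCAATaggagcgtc
Top2a (chr11:99024190-99024439, minus strand): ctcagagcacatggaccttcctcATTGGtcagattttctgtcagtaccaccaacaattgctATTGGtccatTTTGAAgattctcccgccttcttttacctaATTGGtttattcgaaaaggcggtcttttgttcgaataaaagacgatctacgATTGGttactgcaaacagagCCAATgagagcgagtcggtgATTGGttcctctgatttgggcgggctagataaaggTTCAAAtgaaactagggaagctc
Cdc20 held CCAAT starting 53 and 8 bases before the start, with TTTGAA between them at 18 bases. Prc1 held CCAAT at 62 and TTTGAA at 30 bases, counted from 1 of its 2 listed starts. Top2a held 6 CCAAT matches and Ckap2l held 3. The Birc5 stretch had no CCAAT or TTTGAA and only TTTAAA, 220 bases before the start.

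Over the 300-base windows that run from 250 bases before to 50 bases after the start, 44 of the 53 measured genes had an entry. CCAAT was found in 34 of the 44 (77.3%), against 43.8% of the 8698 tested genes with a window and 37.4% of all 32851 windows in the table. TTTGAA was found in 35 (79.5%), against 13.6% of the tested genes and 17.9% of all windows. TTTAAA was found in 8 (18.2%, against 10.7% and 13.2%), and either form in 37 (84.1%, against 21.8% and 27.6%). CCAAT together with 1 of these forms was found in 31 (70.5%, against 8.96% and 10.7%). The median CCAAT match began 66 bases before the start, and the median TTTGAA match 15 bases before it. Bub1, Cdc25b, Mad2l1, Ncaph, Nek2, Nuf2 and Pttg1 had neither TTTGAA nor TTTAAA in the window. The E2F letters TTTCCCGC or TTTGGCGC were found in 2 genes (4.55%, against 3.69% of the tested genes and 1.56% of all windows). The cAMP response element letters TGACGTCA were found in 3 (6.82%, against 3.82% and 1.79%), and TGACG, which lies within TGACGTCA, in 13 (29.5%, against 37.3% and 20.8%). These counts describe letters on both strands, not bound sites.

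The arrays were alike in overall brightness, which the quantile normalization already applied to the deposited values brings about. The median log2 intensity of the genes tested lay between 9.86 and 9.93 on the 16 arrays. The 3′ minus 5′ log2 difference of Actb was 0.66 to 0.77 at 24 h, 0.59 to 0.71 at 6 h, 0.64 to 0.80 at 2 h and 0.60 to 0.67 at 0.5 h. This difference grows as RNA degrades, and its part in the changes with time was not tested. Of the 10 beta-cell markers, 10 passed the filter, Ins2 (insulin 2) at 15.60 to 15.79 and the beta-cell transcription factor gene Pdx1 at 13.22 to 13.43. Of 13 measured mesenchymal, endothelial and leukocyte markers, 0 passed and 12 lay under an intensity of 16 on every array. Of 7 alpha, delta and PP cell markers 4 passed (Gcg, Irx2, Ttr and Sst), with a summed intensity of 84300 to 1e+05 at 24 h and 82200 to 84200 at 0.5 h. That sum was nearly all Ttr, at a log2 level of 16.3 to 16.6, while Gcg reached 10.06, Sst 7.61 and Irx2 4.92. Ppy, Hhex and Ghrl lay under an intensity of 16 on every array. Of 7 acinar and duct cell markers 3 passed (Cela1, Krt7 and Cftr). Their sums were 991 to 1450 at 24 h and 1130 to 1340 at 0.5 h, with Cpa1, Ptf1a, Krt19 and Sox9 under an intensity of 16 on every array. Between 24 and 0.5 h the delta-cell gene Sst rose by 1.20 and Ttr by 0.15, and the duct gene Cftr fell by 0.83. At 24 h Sst was 2.36 higher on the arrays with BayK8644 than on those without, so its mean rise does not describe each treatment. The part of these markers in the fall of the mitotic genes was not tested. In these bulk samples, fewer cells in mitosis and less RNA of these genes per cell cannot be told apart.

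The mitotic genes were high at the earliest time and low at 24 h under every treatment. Between 24 and 0.5 h, 52 of the 53 fell and 0 rose (limma on all genes, Benjamini-Hochberg adjusted p under 0.05), where 13% of all genes tested fell and 10.6% rose. Their median log2 difference was -0.77, a level at 24 h of 0.585 times that at 0.5 h, against a median of -0.0014 over all genes. In 47 of the 53, all 4 arrays of 24 h lay below the other 12 arrays, a pattern that 3.53% of all genes showed. The 6 without it were Mad2l1, Spc25, Smc4, Lmnb1, Ckap2 and Kif20b. The vehicle arrays showed the fall too, as described below. Time and whatever else changed in the culture with time cannot be told apart.

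**Figure D1:**
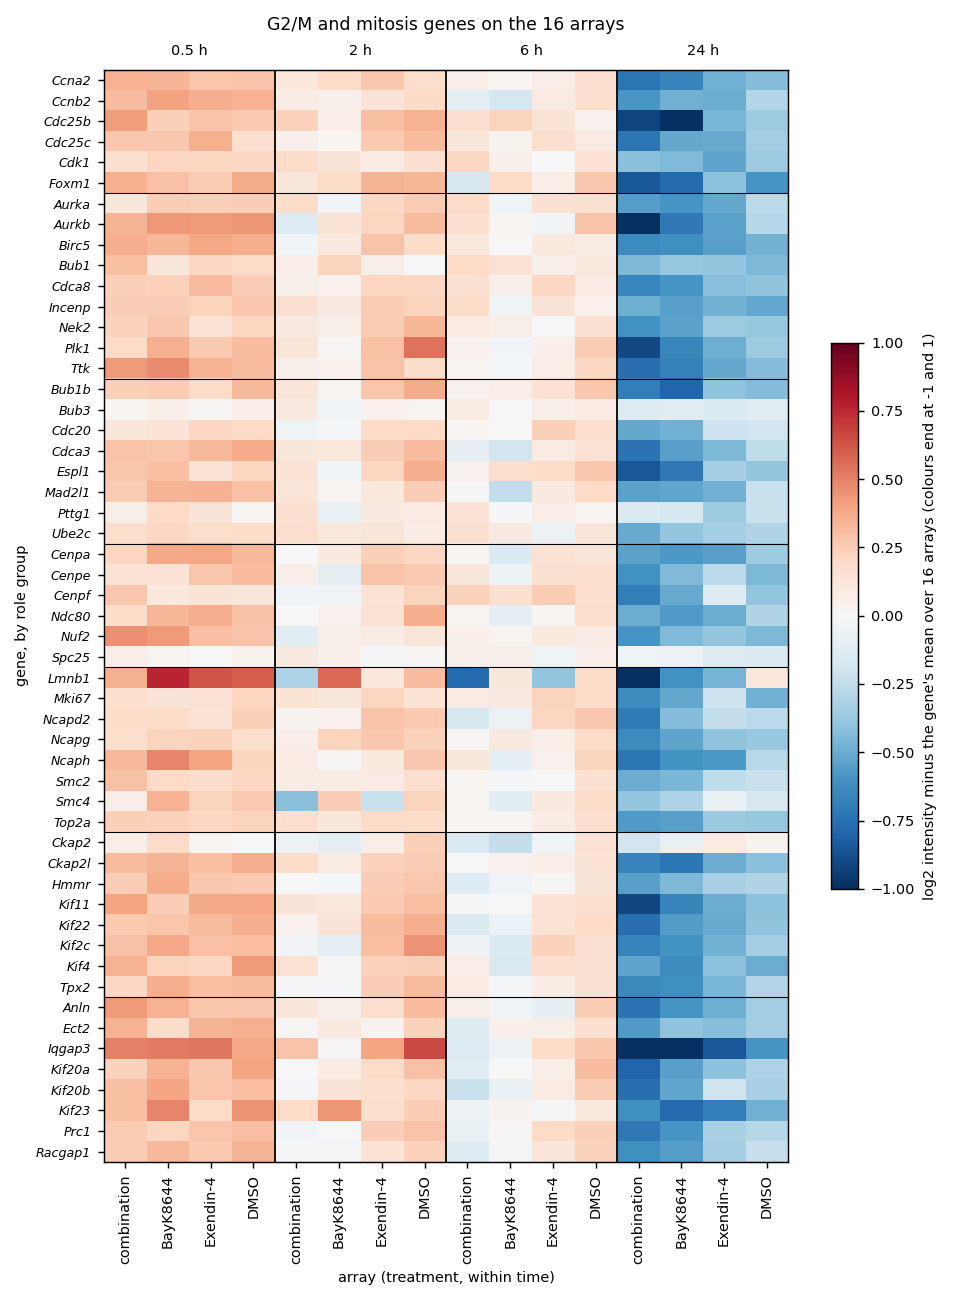
Log2 intensity of the 53 measured G2/M and mitosis genes on the 16 arrays, each gene minus its mean over the arrays (red above, blue below). Rows are ordered by role group, separated by lines, and columns by time and, within a time, by treatment. The 24 h columns are blue for nearly every gene, 47 of the 53 having all 4 arrays of 24 h below the other 12.

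Among the cyclins, CDK1 and its activators, 6 of 6 fell. Cdk1, the kinase at the centre of mitotic entry, read 13.63, 13.64, 13.67 and 13.05 at 0.5, 2, 6 and 24 h with the combination, and 13.68, 13.60, 13.52 and 13.03 with BayK8644. It read 13.68, 13.54, 13.47 and 12.94 at those times with Exendin-4, and 13.67, 13.62, 13.61 and 13.10 with DMSO. The 24 h array was well below the others under each treatment. Up to 6 h the level was lower at each step with BayK8644, Exendin-4 and DMSO, by the least with DMSO, but not with the combination. It averaged 13.03 ± 0.07 at 24 h and 13.66 ± 0.02 at 0.5 h (SD, n = 4 arrays each), a difference of -0.64 ± 0.04 (SE, adjusted p = 1.49e-07). Ccna2, which encodes cyclin A2, averaged 11.89 ± 0.14 at 24 h and 12.78 ± 0.03 at 0.5 h (difference -0.89 ± 0.06, adjusted p = 1.55e-07). Foxm1, the gene of a transcription factor that drives this programme, averaged 10.38 ± 0.19 at 24 h and 11.35 ± 0.06 at 0.5 h (difference -0.97 ± 0.08, adjusted p = 1.33e-06). Cdc25b, Ccnb2 and Cdc25c fell by 0.98, 0.82 and 0.79. The last 2 encode cyclin B2 and another activator of CDK1.

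Among the mitotic kinases and the chromosomal passenger complex, which corrects faulty attachments of chromosomes to the spindle, 9 of 9 fell. Birc5, the gene of the passenger protein survivin, had the smallest p-value of all the mitotic genes. It read 13.58, 13.19, 13.33 and 12.58 at 0.5, 2, 6 and 24 h with the combination, and 13.55, 13.31, 13.22 and 12.60 with BayK8644. It read 13.61, 13.50, 13.32 and 12.68 at those times with Exendin-4, and 13.59, 13.40, 13.30 and 12.74 with DMSO. The 4 arrays of 24 h lay below all the rest and close to each other. Their mean was 12.65 ± 0.07, against 13.58 ± 0.02 at 0.5 h (SD, n = 4 each), a level of 0.525 times (difference -0.93 ± 0.05, adjusted p = 6.28e-08). Aurkb, the kinase of the complex, averaged 11.09 ± 0.33 at 24 h and 12.16 ± 0.05 at 0.5 h (difference -1.06 ± 0.10, adjusted p = 3.69e-06). Plk1, which encodes Polo-like kinase 1, averaged 10.90 ± 0.23 at 24 h and 11.78 ± 0.07 at 0.5 h (difference -0.88 ± 0.08, adjusted p = 3.24e-06). Cdca8 (borealin) and Incenp, which complete the passenger complex, fell by 0.77 and 0.75, Ttk by 0.98, and Aurka, Nek2 and Bub1 by 0.69, 0.68 and 0.62.

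Of the spindle checkpoint, APC/C and separase genes, 8 of 8 fell, over a wide range of sizes. Bub1b, a checkpoint protein gene, averaged 8.59 ± 0.19 at 24 h and 9.42 ± 0.06 at 0.5 h (difference -0.83, adjusted p = 1.58e-06). Cdc20, the activator of the APC/C, averaged 11.90 ± 0.17 at 24 h and 12.41 ± 0.05 at 0.5 h (difference -0.51 ± 0.04, adjusted p = 2.06e-06). Cdca3 and Espl1, the gene of separase, both fell by 0.81, the checkpoint gene Mad2l1 by 0.75 and Ube2c, the gene of the ubiquitin-conjugating enzyme of the APC/C, by 0.57. The checkpoint gene Bub3 fell by only 0.16 ± 0.03 (adjusted p = 0.00294), and Pttg1, the gene of the separase inhibitor securin, by 0.33 ± 0.06 (adjusted p = 0.00128).

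In the centromere and kinetochore group, 6 of 6 fell. Nuf2, Cenpa (the centromeric histone) and Ndc80 fell by 0.84, 0.83 and 0.76, the kinetochore motor gene Cenpe by 0.66 and Cenpf by 0.59. Spc25, a partner of Nuf2 and Ndc80 in the same kinetochore complex, was the brightest of all 53 genes and fell by 0.12 ± 0.03 (adjusted p = 0.00695). The calls of Bub3, Cenpe and Spc25 did not hold when all kept probe sets of a gene were averaged, and Spc25 then read 0.01, on the other side of 0. Averaging in this way also made the falls of Top2a, Cenpa and Ttk smaller, at -0.25, -0.48 and -0.52, and these calls held. A dim second probe set of Spc25, with a mean level of 6.94, differed by 0.15 at 24 h, against -0.12 for the bright one.

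Of the condensin and chromosome structure genes, 8 of 8 fell. Top2a, whose product untangles sister chromatids, averaged 13.35 ± 0.11 at 24 h and 14.04 ± 0.01 at 0.5 h (difference -0.69 ± 0.04, adjusted p = 1.08e-07). Mki67, the gene of the proliferation antigen Ki-67, averaged 13.14 ± 0.18 at 24 h and 13.76 ± 0.04 at 0.5 h (difference -0.62 ± 0.05, adjusted p = 2.45e-06). It was level at the 3 earlier times, when its 12 arrays lay between 13.68 and 13.82. The condensin genes Ncaph, Ncapg, Ncapd2, Smc2 and Smc4 fell by 0.90, 0.69, 0.59, 0.58 and 0.46. Lmnb1, which encodes lamin B1 of the nuclear envelope, fell by 1.13 ± 0.14 (adjusted p = 5.8e-05) and is described with the treatments, since its arrays at 24 h were far apart.

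Among the kinesins and spindle proteins 7 of 8 fell. Kif22, a chromosome-arm kinesin, averaged 11.26 ± 0.15 at 24 h and 12.12 ± 0.05 at 0.5 h (difference -0.86 ± 0.05, adjusted p = 8.22e-08). Ckap2l, the gene of a spindle protein, averaged 9.81 ± 0.14 at 24 h and 10.71 ± 0.03 at 0.5 h (difference -0.91 ± 0.05, adjusted p = 1.08e-07). Kif11, the motor that drives spindle poles apart, averaged 11.22 ± 0.22 at 24 h and 12.19 ± 0.07 at 0.5 h (difference -0.97, adjusted p = 1.8e-07). Kif2c, Kif4, Tpx2 and Hmmr fell by 0.83, 0.82, 0.80 and 0.69. The related gene Ckap2 was the exception among the 53. It read 11.39, 11.26, 11.18 and 11.14 at 0.5, 2, 6 and 24 h with the combination, and 11.32, 11.56, 11.47 and 11.36 with DMSO. Its means at 24 h and 0.5 h were 11.29 ± 0.12 and 11.39 ± 0.08, a difference of -0.11 ± 0.08 that did not pass (adjusted p = 0.343).

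All 8 of the central spindle and cytokinesis genes fell. Iqgap3, the dimmest gene of the list, fell most of all 53, to 6.91 ± 0.23 at 24 h, against 8.28 ± 0.07 at 0.5 h (difference -1.38 ± 0.11, 0.385 times, adjusted p = 7.28e-07). Kif23 and Racgap1, whose products together bundle the central spindle, fell by 0.99 and 0.73. Prc1, the gene of the crosslinker of its microtubules, fell by 0.74, the kinesin genes Kif20a and Kif20b by 0.82 and 0.77, and Anln and Ect2, which act at the contractile ring, by 0.87 and 0.74.

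**Figure D2:**
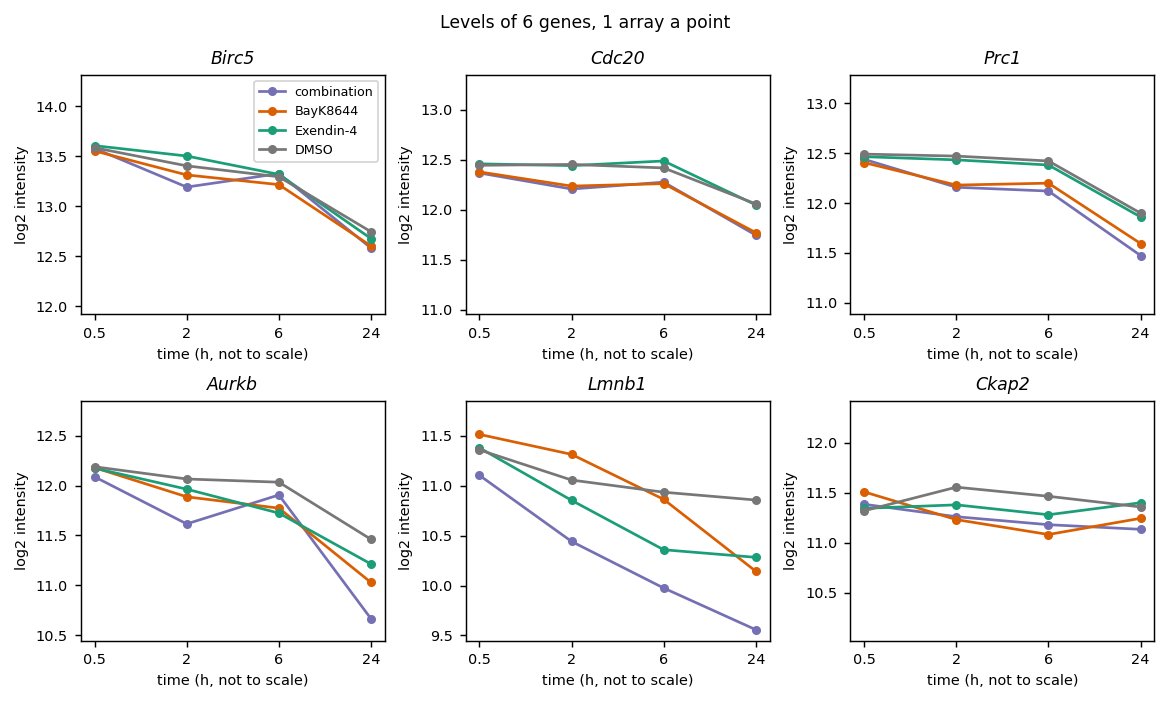
Log2 intensity of 6 genes at 0.5, 2, 6 and 24 h (horizontal axis not to scale), 1 array a point, with 1 line a treatment. The vertical axes have the same length in log2 units but different positions. Birc5 fell alike under all treatments, Cdc20 and Prc1 had both arrays with BayK8644 below both without it at every time, by a narrow margin at 0.5 h, Aurkb and Lmnb1 were lowest with the combination at 24 h, and Ckap2 at 24 h lay within its earlier range.

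Most of the fall lay between 6 and 24 h, by far the longest interval sampled. The speed of the fall was not compared between intervals, so its size there does not show a delay. Between 24 and 6 h, 50 of the 53 fell (6.42% of all genes fell and 6.76% rose), with a median of -0.57. Cdca8 (-0.64 ± 0.05), Cdk1 (-0.54 ± 0.04) and Birc5 (-0.64 ± 0.05) had the smallest p-values (adjusted p = 2.66e-06, 2.66e-06 and 2.87e-06), and Smc4 (-0.28), Lmnb1 (-0.32) and Ckap2 (0.03) did not pass. Between 6 and 2 h, 0 members passed (limma, where 0.236% of all genes fell and 0.17% rose after adjustment), with a median of -0.07. Before adjustment 10 members had a p under 0.05, a count that those shares do not match in threshold. Between 6 and 0.5 h, 26 fell (5.44% of all genes fell and 2.97% rose), with a median of -0.22. In that interval 7 of 8 central spindle and cytokinesis genes and 6 of 8 kinesins and spindle proteins passed, against 2 of 8 of the checkpoint group and 2 of 6 of the cyclin and CDK1 group. The difference between role groups was not tested. Ccnb2 (-0.36), Birc5 (-0.29), Kif22 (-0.27), Cdca3 (-0.33) and Lmnb1 (-0.81) had the smallest p-values (adjusted p = 0.00404, 0.00513, 0.00684, 0.00698 and 0.00698). This count was 11 without the 2 h arrays. It was 9 without the BayK8644 array of 6 h, 10 without that of 0.5 h, 15 when Exendin-4 at 6 h was left out, and 13 and 16 without the combination arrays of 0.5 and 6 h. Between 2 and 0.5 h, 5 fell (2.64% of all genes fell and 2.05% rose). They were Nuf2 (-0.34, adjusted p = 0.0124), Birc5 (-0.23), Ccnb2 (-0.24), Racgap1 (-0.21) and Ect2 (-0.21).

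The fall was measured in each treatment on its own as the 24 h array minus the 0.5 h array, a single array each. Its median over the 53 genes was -0.90 with the combination (0.537 times), -0.85 with BayK8644 (0.553 times), -0.69 with Exendin-4 (0.619 times) and -0.62 with DMSO (0.651 times). All 53 genes were lower at 24 h with the combination and with BayK8644, and 52 of 53 with Exendin-4 and with DMSO. Of all genes, 47.1%, 54.6%, 57.2% and 43.6% were lower at 24 h with the combination, BayK8644, Exendin-4 and DMSO. At 2 h the medians of the 53 were -0.21 with the combination and -0.23 with BayK8644, against -0.06 with Exendin-4 and -0.04 with DMSO. With BayK8644 at 2 h, 60.8% of all genes were lower too, with a median of -0.034. At 6 h the medians of the 53 were -0.24, -0.30, -0.18 and -0.10 in the same order of treatments. The 2 treatments that held BayK8644 thus had the lower medians at each of the 3 later times.

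**Figure D3:**
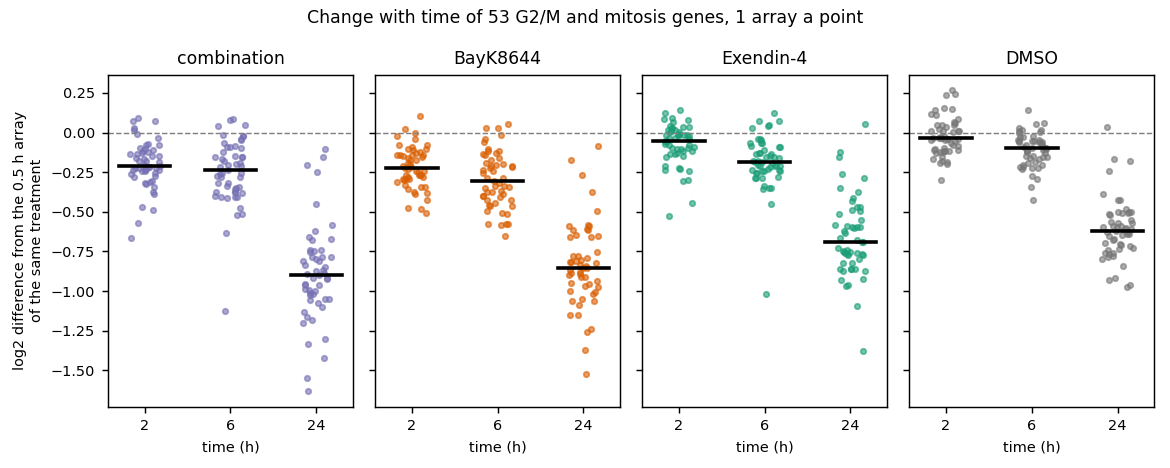
Change of the 53 genes from the 0.5 h array of the same treatment, as a log2 difference at 2, 6 and 24 h, in 1 panel a treatment. Each point is 1 gene on 1 array and each bar the median. At 24 h the medians are -0.90 with the combination, -0.85 with BayK8644, -0.69 with Exendin-4 and -0.62 with DMSO.

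With BayK8644 the mitotic genes were lower, by a small amount next to the fall with time. Over the 4 times, 16 of the 53 fell and 0 rose on the 8 arrays with BayK8644 (combination and BayK8644 alone) against the 8 without it (Exendin-4 alone and DMSO), where 3.69% of all genes fell and 4.85% rose. The median difference of the 53 was -0.13, or 0.914 times, against 0.006 over all genes, and 47 of the 53 were below 0. The 4 times stood in for replicates in this test, so an effect that changes with time counts as error. None of the 16 calls held under every alternative, because 0 passed without the 2 h arrays or without the 6 h arrays, although the medians there were still -0.11 and -0.12. Without the 0.5 h arrays 39 passed, and without the 24 h arrays 5. Leaving out 1 array of DMSO gave 25, 7, 8 and 10 (0.5, 2, 6 and 24 h), and 1 of BayK8644 gave 23, 9, 7 and 9. Leaving out 1 of Exendin-4 gave 19, 8, 8 and 11, and 1 of the combination gave 28 (1 of them higher), 9, 12 and 9. Among markers of other islet cells, Gcg rose by 0.31 with BayK8644 over the 4 times (limma, adjusted p = 0.0426). Sst (0.79, adjusted p = 0.0751), Ttr (0.06) and Irx2 (-0.11) did not pass. At 24 h Sst rose by 2.36 (limma, adjusted p = 0.000218) and Gcg by 0.56 (limma, adjusted p = 0.0176), while Irx2 differed by -0.64 and did not pass. Of the beta-cell markers, Nkx2-2 fell by 0.32 over the 4 times (limma, adjusted p = 0.0249), and its difference at 24 h was -0.64 (limma, adjusted p = 0.000499). The others, from Slc2a2 (0.36) to Nkx6-1 (-0.10) over the 4 times, did not pass. The part of these markers was not tested.

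By role, 6 of 8 kinesins and spindle proteins, 3 of 8 checkpoint, APC/C and separase genes and 3 of 8 central spindle and cytokinesis genes fell. Further falls were 2 of 9 mitotic kinase and passenger genes, 1 of 6 centromere and kinetochore genes, 1 of 8 condensin and chromosome structure genes and 0 of 6 of the cyclin and CDK1 group. Of all genes, 3.69% fell. The difference between role groups was not tested. In the cyclin and CDK1 group the differences were -0.16 (Foxm1), -0.14 (Cdc25b), -0.12 (Ccnb2), -0.12 (Cdc25c), -0.08 (Ccna2) and 0.02 (Cdk1), several of them as large as those of called genes. Cdc20, whose promoter is shown above, ran from 11.74 through a median of 12.25 to 12.38 on the 8 arrays with BayK8644, and from 12.05 through 12.44 to 12.49 on the 8 without. At all 4 times each array with BayK8644 lay below both arrays without it. The 0.5 h levels were 12.37 with the combination and 12.38 with BayK8644, against 12.46 with Exendin-4 and 12.44 with DMSO, and the 24 h levels were 11.74 and 11.77 with it against 12.05 and 12.06 without. The difference over all times was -0.20 ± 0.03 (SE, 0.873 times, adjusted p = 0.00279). The dimmest of its 3 probe sets, with a mean level of 5.01, differed by 0.01, while another, at 11.86, differed by -0.18, and with all 3 averaged the difference was -0.12 and did not pass (limma, adjusted p = 0.0654).

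Prc1 ran from 11.47 through a median of 12.17 to 12.44 on the arrays with BayK8644 and from 11.86 through 12.43 to 12.49 on those without. Its 2 h arrays stood at 12.16 and 12.18 with BayK8644, against 12.43 and 12.47 without, and the same order held at 0.5, 6 and 24 h. The difference was -0.23 ± 0.04 (adjusted p = 0.00353). Kif22 (-0.20 ± 0.03, adjusted p = 0.00386), Racgap1 (-0.19 ± 0.04, 0.00803), Kif20a (-0.20 ± 0.04, 0.00865), Cdca3 (-0.19 ± 0.04, 0.0119) and the condensin gene Ncapd2 (-0.23 ± 0.05, 0.013) followed. These 5 genes, Cdc20 and Prc1 were the 7 whose calls held with each array left out in turn. Cenpe and Kif11 (both -0.18), Kif2c (-0.23), Plk1 (-0.21 ± 0.06, adjusted p = 0.0324), Tpx2 (-0.16), Bub1b (-0.18), Cdca8 (-0.11), Hmmr (-0.14) and Kif4 (-0.13) also fell, with adjusted p between 0.0209 and 0.0494.

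Several of the best known members did not pass. Mki67 ran from 12.97 through 13.70 to 13.76 with BayK8644 and from 13.11 through 13.76 to 13.82 without, a difference of -0.11 ± 0.04 (adjusted p = 0.0999). Top2a differed by -0.08 ± 0.03 (adjusted p = 0.102), Birc5 by -0.10 ± 0.03 (0.0848), Foxm1 by -0.16 ± 0.06 (0.088) and Aurkb by -0.21 ± 0.07 (0.0745). Cdk1 ran from 13.03 through 13.61 to 13.68 with BayK8644 and from 12.94 through 13.58 to 13.68 without. These ranges pool the times, so the fall with time makes them wide. With time in the model (limma) the difference of Cdk1 was 0.02 ± 0.03 (adjusted p = 0.652). The other 5 genes above 0 were Spc25 (0.06, adjusted p = 0.0711), Bub1, Pttg1, Kif23 and Ube2c. The members nearest to the threshold on its far side were Cenpa (-0.13, adjusted p = 0.0524), Ndc80 (-0.14, 0.0534) and Iqgap3 (-0.25, 0.0538).

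**Figure D4:**
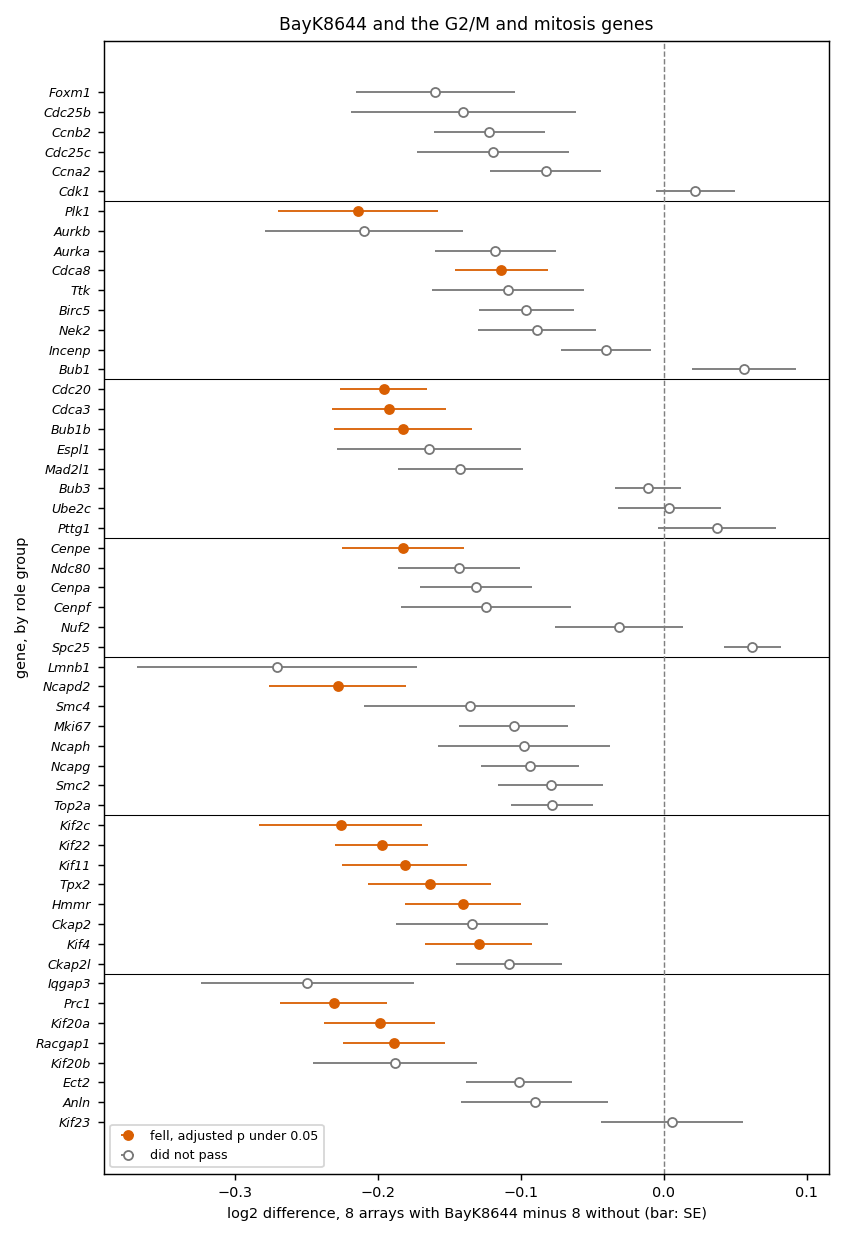
Log2 difference of the 8 arrays with BayK8644 minus the 8 without, with its SE, for the 53 genes by role group (lines separate the groups). Filled points passed at an adjusted p under 0.05 and open points did not. Of the 53 points, 47 lie below 0, 16 of them filled, and no gene of the top group (cyclins, CDK1 and its activators) is filled. The difference between role groups was not tested.

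At 0.5 h the median of the 53 genes hardly differed with BayK8644. At that time 0 of the 53 passed, where 0% of all genes fell and 0.217% rose after adjustment. Before adjustment 0 of the 53 had a p under 0.05. The median was -0.002, and in 7 of the 53, Cdc20 and Prc1 among them, both arrays with BayK8644 lay below both without, against 13.8% of all genes. At 2 h Kif2c (-0.44 ± 0.07, adjusted p = 0.0223) and Prc1 (-0.28 ± 0.06, adjusted p = 0.0452) fell, where 0.481% of all genes fell and 1.15% rose. The median was -0.16, and both arrays with BayK8644 lay below both without in 41 of the 53, against 24.2% of all genes. At 6 h Ncapd2 (-0.35), Racgap1 (-0.25) and Kif22 (-0.27) fell (0.773% of all genes fell and 1.71% rose, adjusted p = 0.0431, 0.044 and 0.0495). The median was -0.12, and the 2 arrays lay below the other 2 in 29 of the 53, against 18.9% of all genes.

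At 24 h, 11 of the 53 fell and 0 rose with BayK8644, where 2.12% of all genes fell and 2.99% rose. The median was -0.22, and in 40 of the 53 both arrays with BayK8644 lay below both without, against 22.5% of all genes. Prc1 stood at 11.47 with the combination and 11.59 with BayK8644, against 11.86 with Exendin-4 and 11.90 with DMSO (difference -0.35 ± 0.06, adjusted p = 0.0103). Cdc25b, the phosphatase gene that activates CDK1, stood at 9.37 with the combination and 9.29 with BayK8644, against 9.83 with Exendin-4 and 9.93 with DMSO. Its difference was -0.55 ± 0.09 (adjusted p = 0.0109), although over the 4 times Cdc25b did not pass (-0.14, adjusted p = 0.275). Aurkb stood at 10.67 and 11.03 with the combination and BayK8644, against 11.21 and 11.46 with Exendin-4 and DMSO (difference -0.49 ± 0.10, adjusted p = 0.026).

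Racgap1 (-0.30), Cdc20 (-0.30), Kif11 (-0.33), Lmnb1 (-0.72), Espl1 (-0.42), Cdca3 (-0.29), Kif20a (-0.31) and Ncapd2 (-0.32) completed the 11, with adjusted p between 0.0134 and 0.0418. Of the 11, 7 had also passed over the 4 times, and Aurkb, Cdc25b, Espl1 and Lmnb1 had not. None of the 11 calls held with each array left out in turn, the count falling to 0 without the combination array of 24 h and to 1 when Exendin-4 at 24 h was left out. It was 3 without any 1 array of 0.5 h and 6 without any 1 array of 6 h. The error in this test was pooled over times although residuals were larger at 24 h (root mean square 0.0919) than at 0.5 h (0.0509), and with limma's array weights 0 passed.

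Whether the effect of BayK8644 differed between 24 and 0.5 h was tested as a difference of the 2 effects. It passed in 0 of the 53 (limma, where 0.415% of all genes fell in this test and 0.603% rose after adjustment). The median was -0.22, and Cdc25b was nearest (-0.61 ± 0.13, adjusted p = 0.0734). Before adjustment 26 members had a p under 0.05, a count that those shares do not match in threshold. Without the DMSO array or the BayK8644 array of 24 h, 5 passed.

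The effect of BayK8644 was also read in 2 sets of arrays that share none, BayK8644 minus DMSO and the combination minus Exendin-4. The medians over the 53 genes were 0.01 and -0.01 at 0.5 h, -0.20 and -0.15 at 2 h, -0.18 and -0.06 at 6 h, and -0.19 and -0.24 at 24 h. Both were near 0 at the earliest time and below 0 at the 3 later times. Over the 4 times, BayK8644 alone against DMSO had a median of -0.13 and 0 members passed (limma, where 0.358% of all genes fell and 0.481% rose after adjustment). Before adjustment 27 members had a p under 0.05, a count that those shares do not match in threshold. Prc1 (-0.23) and Cdc20 (-0.18) were nearest, both at an adjusted p of 0.0781.

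With the combination against DMSO, 11 of the 53 fell and 0 rose, where 2.59% of all genes fell and 4.38% rose, with a median of -0.15. They were led by Kif20a (-0.34 ± 0.05, adjusted p = 0.00578) and Kif22 (-0.28 ± 0.05, adjusted p = 0.00764), and these were the 2 calls that held with each array left out. Racgap1, Prc1, Cdc20, Cdca3, Ncapd2, Plk1, Aurkb (-0.37, adjusted p = 0.0409), Tpx2 and Lmnb1 completed the set. The count was 24, 3, 2 and 5 without the DMSO array of 0.5, 2, 6 or 24 h, 21, 4, 4 and 3 without that of the combination, and 18 when Exendin-4 at 24 h was left out. It was 28, 0, 0 and 2 without all arrays of 0.5, 2, 6 or 24 h. The DMSO arrays are shared with the comparison of BayK8644 alone.

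Lmnb1 set itself apart in course on the probe set used, of mean level 10.75. A second probe set, nearly as bright (10.69), changed less. It differed by -0.81 between 24 and 0.5 h and by -0.185 with BayK8644, against -1.13 and -0.27 for the one used. On the probe set used, Lmnb1 read 11.10, 10.44, 9.98 and 9.56 at 0.5, 2, 6 and 24 h with the combination, and 11.51, 11.31, 10.86 and 10.14 with BayK8644. It read 11.38, 10.85, 10.36 and 10.28 at those times with Exendin-4, and 11.36, 11.06, 10.93 and 10.86 with DMSO. The combination array was the lowest of the 4 at every time, and by 24 h the DMSO array was the highest. With the combination the difference from DMSO over the 4 times was -0.78 ± 0.14 (0.582 times, adjusted p = 0.0108).

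With Exendin-4 present against absent (8 arrays each), Lmnb1 differed by -0.51 ± 0.10, the lowest value of the 53, and did not pass (adjusted p = 0.149). Within the times that difference was -0.19, -0.54, -0.73 and -0.58 at 0.5, 2, 6 and 24 h, and within-time differences with BayK8644 were -0.06, -0.08, -0.23 and -0.72. The interaction of the agents on Lmnb1 was -0.36 ± 0.20 (adjusted p = 0.747). In the comparison of Exendin-4 present against absent 0 of the 53 and 0 of all genes passed (limma, with 8 members and 1317 genes in all under 0.05 before adjustment), and the median of the 53 was -0.03. Kif20a (-0.14, adjusted p = 0.219) came next. With limma's array weights 2 members passed, and without the 0.5 h arrays, or without only the combination array of 0.5 h, 1. Within the times 0 members passed by limma at 0.5, 2, 6 or 24 h. Of all genes 0.00943% rose at 0.5 h and 0.0189% at 2 h after adjustment. The Exendin-4 effect at 24 h minus that at 0.5 h passed in 0 members, and 0.00943% of all genes fell in that test after adjustment. For Exendin-4 alone against DMSO 0 members and 0% of all genes passed, and for the interaction 0 and 0%.

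Genes that work beside the 53 were read from lists chosen in the same way. Of 53 other measured G2/M and mitosis genes, 50 fell between 24 and 0.5 h and 1 rose, where 13% of all genes fell and 10.6% rose, with a median of -0.74. Troap (-1.15), Ska1 (-1.04) and Melk (-1.02) fell most. The 1 that rose was Psrc1, the gene of a microtubule-binding protein. It stood at 10.83, 11.01, 10.78 and 10.56 on the 24 h arrays of the combination, BayK8644, Exendin-4 and DMSO, against 9.72, 9.87, 9.94 and 9.86 at 0.5 h (limma, difference 0.95 ± 0.09, adjusted p = 3.3e-06). With BayK8644 7 of these 53 fell and 0 rose, where 3.69% of all genes fell, led by Ska2 (-0.42, adjusted p = 0.000214), Pimreg (-0.30) and Depdc1a (-0.26).

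Of 60 measured G1/S and replication genes, 47 fell between 24 and 0.5 h and 2 rose, where 13% of all genes fell and 10.6% rose. Their median was -0.32, against -0.77 for the 53 mitotic genes, a difference between lists that was not tested. Ticrr (-0.98), Rrm2 (-0.94) and Mcm10 (-0.85) fell by amounts within the range of the mitotic genes. The 2 that rose were Ccnd2 (0.75), which encodes cyclin D2, and Cdca7 (0.33). With BayK8644, where 3.69% of all genes fell and 4.85% rose, 5 of the 60 fell (Cdk2 -0.25, Rpa2 -0.23, Uhrf1 -0.21, Rfc1 -0.17 and Mcm5 -0.08) and 2 rose, Orc1 (0.30) and Ccnd2 (0.50 ± 0.09, adjusted p = 0.00711). Ccnd2 read 12.45, 13.34, 13.45 and 13.70 at 0.5, 2, 6 and 24 h with the combination and 12.49, 13.05, 13.23 and 13.50 with BayK8644. It read 12.37, 12.84, 12.74 and 12.98 with Exendin-4, and 12.54, 12.54, 12.54 and 12.68 with DMSO. Arrays with BayK8644 were thus above the others from 2 h on.

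**Figure D5:**
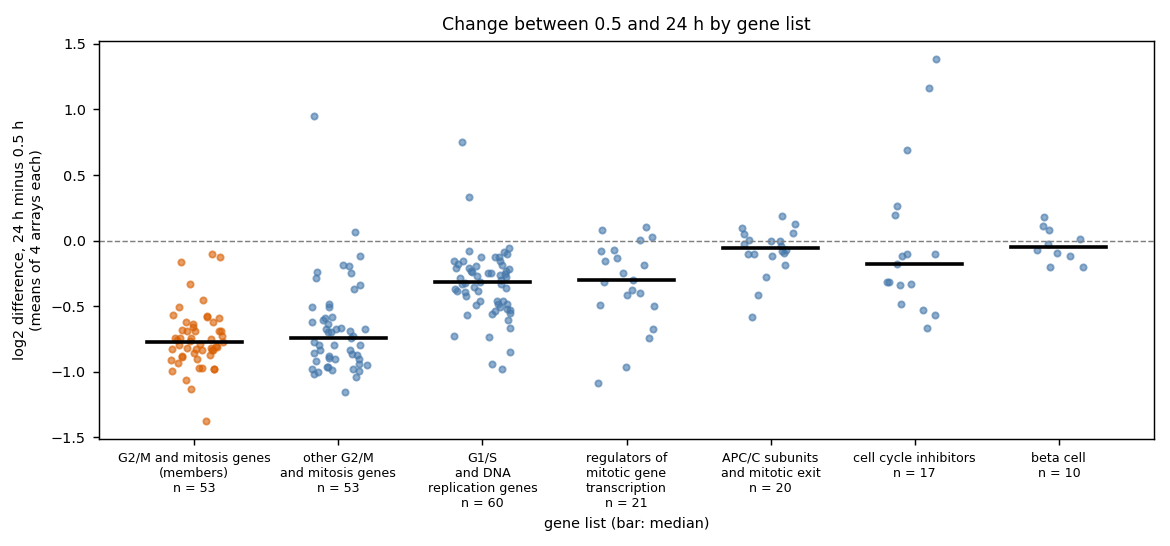
Log2 difference between 24 and 0.5 h (means of 4 arrays each) for each gene of 7 lists, with the median as a bar and the number of measured genes under each list. The 53 G2/M and mitosis genes have a median of -0.77, the other G2/M and mitosis genes -0.74, G1/S and replication genes -0.32 and beta-cell markers -0.05.

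Of 21 regulators of mitotic gene transcription, 12 fell between 24 and 0.5 h and 0 rose, where 13% of all genes fell. Mybl2, the gene of B-MYB, lay between 8.94 and 9.02 on the 4 arrays of 24 h, against up to 10.11 on those of 0.5 h (difference -1.09 ± 0.06, adjusted p = 6.61e-08). The treatments hardly differed at either time. The E2F repressor genes E2f8 (-0.97) and E2f7 (-0.67), the activator gene E2f2 (-0.74), the MuvB gene Lin9 (-0.50) and the p107 gene Rbl1 (-0.49) also fell. With BayK8644 2 of the 21 fell over the 4 times, Lin9 (-0.25) and Tfdp2 (-0.22), where 3.69% of all genes fell. At 24 h, where 2.12% of all genes fell, 4 of the 21 did, namely Nfya (-0.82), which encodes a subunit of NF-Y, E2f1 (-0.61), E2f7 (-0.50) and Lin9 (-0.33).

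Of 17 cell cycle inhibitors, 4 rose and 8 fell between 24 and 0.5 h, where 10.6% of all genes rose and 13% fell. Cdkn1a, the gene of the CDK inhibitor p21, stood at 13.71, 13.60, 13.41 and 13.22 on the 24 h arrays of the combination, BayK8644, Exendin-4 and DMSO, against 12.20, 12.08, 12.07 and 12.05 at 0.5 h. All 4 arrays of 24 h lay above all of 0.5 h (difference 1.39 ± 0.06, 2.61-fold, adjusted p = 2.97e-08). Ccng1 (1.17), Gadd45g (0.69) and Cdkn2b (0.19) also rose. Cdkn1c (-0.66), Ccng2 (-0.57), Cdkn2d (-0.53), Gadd45a (-0.48), Btg1 (-0.34), Pkmyt1 (-0.33), Wee1 (-0.31) and Cdkn2c (-0.18) fell. With BayK8644, where 4.85% of all genes rose and 3.69% fell, 3 of the 17 rose, Cdkn1a (0.24 ± 0.04, adjusted p = 0.00653), Gadd45b (0.45) and Gadd45g (0.23), and 3 fell, Gadd45a (-0.72), Ccng2 (-0.42) and Mxi1 (-0.30). At 24 h the difference of Cdkn1a with BayK8644 was 0.34 ± 0.06 (adjusted p = 0.021), and Wee1, whose kinase restrains CDK1, fell by 0.35.

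The APC/C is the protein complex that Cdc20 and Ube2c serve. Of 20 measured APC/C and mitotic exit genes, 4 fell between 24 and 0.5 h and 0 rose, with a median of -0.06, a share not far from the 13% of all genes that fell. They were Fbxo5 (-0.58), the gene of an APC/C inhibitor, Fzr1 (-0.41), Cdc27 (-0.28) and Cdc23 (-0.19). With BayK8644 1 of the 20 rose and 1 fell, against 4.85% and 3.69% of all genes. Cdc14b rose by 0.55 and Cdc23 fell by 0.22. The beta-cell markers had a median of -0.05 between 24 and 0.5 h, with 2 that rose and 1 that fell. All 5 early response genes read as a check of the agents rose with BayK8644 over the 4 times (median 1.54), among them Npas4, an activity-induced transcription factor gene, by 2.97.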

How the data were processed

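The deposited values are linear intensity values of 45101 probe sets on each of 16 Affymetrix arrays, made by the authors with GCRMA per the submitters' processing notes, which corrects background, quantile-normalizes and summarises probes. Its version was not given in the sources used here. They were put on the log2 scale as they stand (pseudocount of 0, arrays not rescaled). Probe sets with 1 gene symbol in the platform annotation (34945, controls left out) were used. Those with several (932) or none (9211) were not. Models were fitted over 10610 genes with limma 3.58.1 in R 4.3.3 (lmFit, eBayes with intensity trend), with time and treatment (9 residual degrees of freedom), or with each agent within each time (4 residual degrees of freedom). Differences carry limma's standard error (SE). P-values were adjusted by Benjamini-Hochberg across every gene fitted, with a threshold of 0.05. The scripts were tested on simulated data.

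The mitotic genes and all other lists were chosen with earlier results of these data known. Genes given in full were Mki67, Top2a, Cdk1, Plk1, Aurkb, Foxm1, Birc5, Cdc20 and Lmnb1, those with the smallest p-values in each comparison (8 in each, with counts for the rest), and, of other lists, those that passed with BayK8644. Ckap2, Spc25, Psrc1, Mybl2 and others named from 24 h against 0.5 h were chosen after their values were seen. Of the 53 genes, 35 have several kept probe sets, and in Spc25 and Top2a these differ in sign at 24 h. The number of arrays limits the precision. Alternatives covered filter, probe set, scaling, variance model and arrays left out.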

Additional observations from a re-analysis of the deposited data

Results flagged for a closer look

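For each gene and treatment, the 4 arrays were compared after subtracting the mean of the 4 treatments at the same time, and in 7 of 212 such sets 1 array stood apart from the other 3. Chance flags about 1 set in 20, or 10.6 of 212, so the number is no more than chance gives. The array that stood apart was at 0.09 for Ttk with BayK8644 at 0.5 h, at 0.15 for Birc5 with Exendin-4 at 2 h, and at 0.11 for Smc2 with Exendin-4 at 24 h. It was at -0.13 for Pttg1 with Exendin-4 at 24 h, at -0.04 for Pttg1 with the combination at 0.5 h, at 0.06 for Kif22 with DMSO at 0.5 h, and at -0.04 for Hmmr with the combination at 0.5 h. All are log2 deviations from the mean at that time.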

How the results depend on the processing

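The count of 52 falls between 24 and 0.5 h ran from 49 to 52 over the alternatives and was 52 with each array left out. The count of 50 between 24 and 6 h ran from 46 to 52, and from 50 to 51 with arrays left out. The count of 26 between 6 and 0.5 h was 11 without the 2 h arrays and 9 to 30 with arrays left out. With BayK8644 over the 4 times, the count of 16 was 9 with no filter, 26 with array weights (1 of them higher), 39, 0, 0 and 5 without the arrays of 0.5, 2, 6 and 24 h, and 7 to 28 with arrays left out. With the combination against DMSO, the count of 11 was 7 with no filter, 24 with array weights, 28, 0, 0 and 2 without those times, and 2 to 24 with arrays left out. With BayK8644 at 24 h, the count of 11 was 6 with no filter, 4 with every probe set tested, 2 with no intensity trend, 0 with array weights and 0 to 13 with arrays left out. With Exendin-4, the count of 0 was 2 with array weights, 1 without the 0.5 h arrays and 0 to 1 with arrays left out. The difference of the BayK8644 effect between 24 and 0.5 h passed in 0 to 5 genes with arrays left out. The cause of these moves was not tested, except that fewer arrays or more genes tested change the test itself. With all kept probe sets averaged, 4 differences changed sign, those of Cenpa (0.0273), Top2a (0.096) and Ttk (0.164) between 6 and 0.5 h and of Spc25 (0.0131) between 24 and 0.5 h. Over 166 called results of single genes and 4669 alternatives, 4158 kept direction and call, 507 kept only the direction and 4 reversed. No paired analysis was possible because the labels give no replicate numbers, and time was already in the model. Signal over background was no limit, since every one of the 53 genes had a log2 level of at least 6.67 on each array.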
